A study of Mus musculus with 6 samples.

Results

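Abundant or nucleus-retained noncoding RNAs were followed through sorted retinal cells: Malat1, Neat1, Meg3, Miat, Rian, Mirg, Snhg11 and Rn7sk. They were taken by name, and make up 8 of the 32371 genes with counts. All 8 passed the filter on low counts and were tested with 18138 genes in all. Adult C57BL/6J mice received AAV2-GFP (3 control libraries) or AAV2-Ezh2-Y726D (3 libraries) in the vitreous body, and in both groups the optic nerve was crushed (ONC) 2 weeks later and cells were taken 3 days after ONC. Ezh2 is the histone H3 lysine methyltransferase of a Polycomb repressive complex, and the Y726D change is described as removing its enzyme activity. RGCs were enriched from dissociated retinas by sorting for CD90.2, and total RNA was sequenced. AAV2 can also enter other retinal cells, the sources used here do not say whether retinas were pooled, and nothing states that libraries came from separate animals, so p-values measure only the spread between these libraries.

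These RNAs work in the nucleus by different routes. Malat1 lies in nuclear speckles, where splicing factors gather, and Neat1 is the scaffold of paraspeckles. Meg3, Rian and Mirg are the maternally expressed noncoding RNAs of the imprinted Dlk1-Dio3 region, and Rian and Mirg host snoRNAs and miRNAs of the region. Miat, also called Gomafu, is a neuronal RNA that binds splicing factors, Snhg11 is a snoRNA host gene of neurons, and Rn7sk is 7SK, the RNA that holds the elongation kinase P-TEFb inactive through Hexim proteins.

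After Ezh2-Y726D overexpression, 4 of the 8 RNAs rose and 0 fell, while 2 others had an unadjusted p under 0.05 in the downward direction (edgeR's quasi-likelihood test, with 0 lower in DESeq2 also). The 3 RNAs of the Dlk1-Dio3 region, Meg3, Rian and Mirg, rose by 0.46 to 0.61 on the log2 scale, and Snhg11 rose by 0.68. Malat1, Neat1, Miat and Rn7sk did not pass the test at an adjusted p under 0.05. Across all genes tested, 13.9% were called higher and 13.6% lower. Meg3 and Snhg11, so 2 of 8, also passed the study's criteria for a DEG (adjusted p under 0.05 and fold change above 1.5 in either direction), which 8.02% of all genes met. The same 4 RNAs that rose were those whose normalised values did not overlap between the groups, as was the case for 38.6% of all genes tested.

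The libraries held 9333244 to 23782520 counts. One annotated rRNA gene, CT010467.1, took 6.59% to 52.2% of the counts in GFP libraries and 2.55% to 16.1% in Ezh2-Y726D libraries, and it exceeded 50% in GFP replicates 2 and 3. Levels are therefore given as CPM, read counts relative to a TMM-scaled library size, a scaling that sets the bulk of genes equal between libraries. Ezh2 was 22.7, 23.9 and 26.4 CPM in the GFP libraries and 65.2, 65.6 and 65.2 CPM in the Ezh2-Y726D libraries, in the direction of the labels. Of the RGC markers, 14 of 14 were detected above the filter, but those of amacrine, bipolar, rod, cone, Müller glia, microglial, T and endothelial cells also passed it. In such bulk libraries, fewer cells of a type and less RNA per cell cannot be told apart.

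Meg3 lies at chr12:109541001-109571726 on the plus strand (GRCm38, GENCODE vM21), with 18089 bases of exon. Its level was 245.9, 282.7 and 248.6 CPM in the GFP libraries and 393.4, 396.5 and 396.9 CPM in the Ezh2-Y726D libraries. Every Ezh2-Y726D library was above every GFP library, and the Ezh2-Y726D libraries lay within a narrow band. The log2 fold change was 0.61 (SE 0.0451), a 1.53-fold rise, with an adjusted p of 1.81e-11 in the quasi-likelihood test of edgeR, adjusted by Benjamini-Hochberg over all genes tested.

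Rian, at chr12:109603940-109661716 on the plus strand, hosts a snoRNA cluster between and within its exons. GFP libraries held 149.1, 167.6 and 146.1 CPM of it, against 214.5, 211.7 and 210.3 CPM with Ezh2-Y726D. The groups did not overlap, and the log2 fold change was 0.46 (SE 0.0441, adjusted p 2.5e-09). Mirg, the miRNA host at chr12:109729764-109749460 on the plus strand, was far less counted. GFP libraries held 18.7, 18.1 and 19.4 CPM, against 27.1, 25.6 and 27.8 CPM with Ezh2-Y726D. Again no Ezh2-Y726D library fell among the GFP libraries, and the log2 fold change was 0.53 (SE 0.0701, adjusted p 8.55e-07).

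Snhg11 lies on another chromosome, at chr2:158375638-158386145 on the plus strand, and the annotation used here lists it as protein-coding. Its level was 160.5, 184.7 and 152.3 CPM in the GFP libraries and 266.6, 260.6 and 267.2 CPM in the Ezh2-Y726D libraries. This was the largest of the 8 log2 fold changes at 0.68 (SE 0.0483), a 1.60-fold rise with an adjusted p of 1.03e-11, and the groups were fully apart. A snoRNA gene listed inside an Snhg11 intron, Gm25129, held 3 to 29 counts per library. The 8 panels of levels by library show the gap between groups in the upper 4 RNAs and the overlap in the lower 4.

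**Figure D1:**
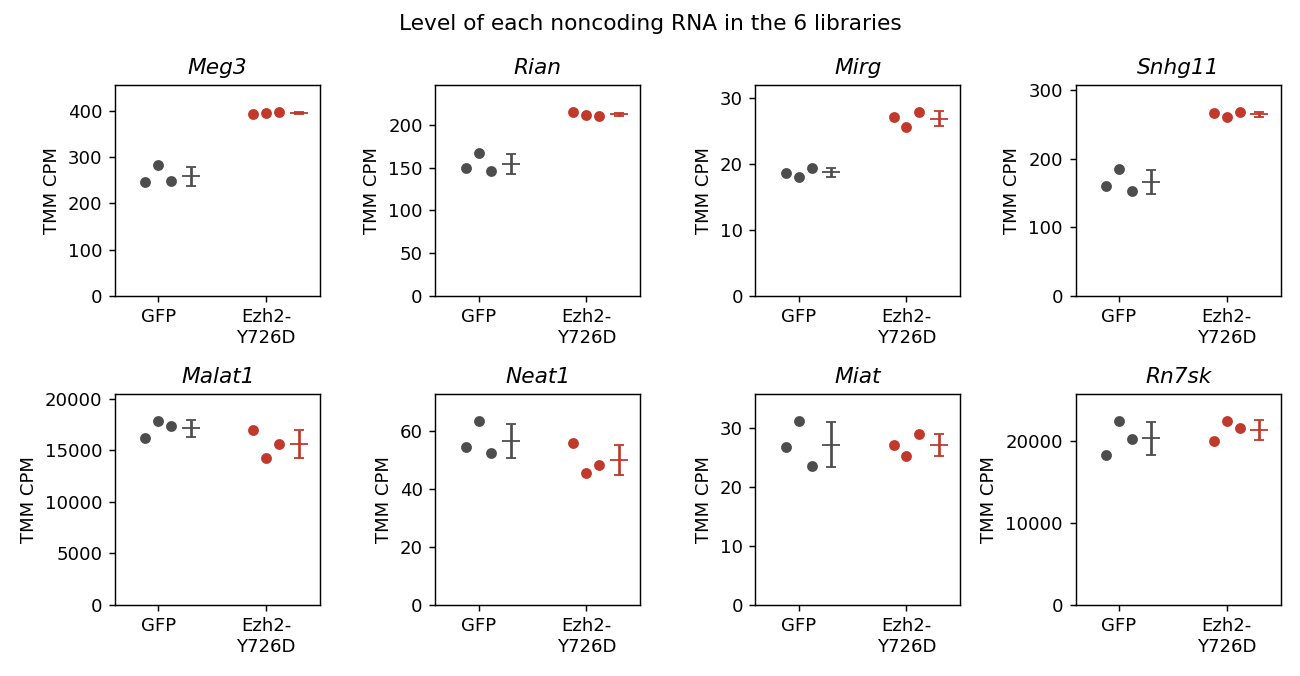
Level of each noncoding RNA (TMM CPM, axes from 0) in each of 3 GFP and 3 Ezh2-Y726D libraries, with the mean and SD beside the points. Meg3, Rian, Mirg and Snhg11 have no overlap between the groups (Meg3 is at most 282.7 CPM in GFP and at least 393.4 CPM after Ezh2-Y726D), while Malat1, Neat1, Miat and Rn7sk overlap.

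To set the starts of RNAs that rose side by side, the 300 bases around each RefSeq start (250 before and 50 after, GRCm38.p6) are printed here for Meg3, Rian and Snhg11. Capitals mark the letters of 4 motifs searched on both strands: the cAMP response element TGACGTCA, the TATA box TATAAA, the CCAAT box CCAAT and the GC box GGGCGG.
Meg3 (chr12:109540746-109541045, plus strand): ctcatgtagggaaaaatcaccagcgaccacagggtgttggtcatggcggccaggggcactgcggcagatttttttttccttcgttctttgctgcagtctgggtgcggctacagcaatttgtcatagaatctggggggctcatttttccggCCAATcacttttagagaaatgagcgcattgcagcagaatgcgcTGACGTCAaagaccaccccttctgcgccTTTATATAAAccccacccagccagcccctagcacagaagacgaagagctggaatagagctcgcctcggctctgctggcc
Rian (chr12:109603695-109603994, plus strand): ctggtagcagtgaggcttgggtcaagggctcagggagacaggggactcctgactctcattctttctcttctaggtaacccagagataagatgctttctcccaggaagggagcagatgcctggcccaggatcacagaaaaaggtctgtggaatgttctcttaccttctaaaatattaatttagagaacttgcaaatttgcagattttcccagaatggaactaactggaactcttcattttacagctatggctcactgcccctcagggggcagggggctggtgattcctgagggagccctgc
Snhg11 (chr2:158375463-158375762, plus strand): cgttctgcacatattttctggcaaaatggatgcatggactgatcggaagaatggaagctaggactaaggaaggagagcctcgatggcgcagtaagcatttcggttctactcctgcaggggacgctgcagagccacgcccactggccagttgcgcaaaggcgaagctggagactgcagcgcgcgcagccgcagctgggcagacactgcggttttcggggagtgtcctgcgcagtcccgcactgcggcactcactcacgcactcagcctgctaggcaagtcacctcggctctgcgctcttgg
The Meg3 window held TGACGTCA, which occurs in 1.79% of the 32851 promoter windows, first base 57 bases before the start. It also held CCAAT at 100 bases before the start (37.41% of windows) and TATAAA with its overlapping reverse complement at 25 and 29 bases before the start (13.62% of windows). The Rian and Snhg11 windows held none of the 4 motifs (GGGCGG occurs in 35.66% of windows). CpG dinucleotides numbered 13 in the Meg3 window, 0 in the Rian window and 21 in the Snhg11 window, against a median of 7 over all windows. The window at the RefSeq start of Mirg, which also rose and whose GENCODE start lies elsewhere, held 10 CpG and 1 CCAAT. Of the RNAs that were not called, Malat1 had a window with 10 CpG and none of the motifs, and Miat one with 25 CpG and 1 GGGCGG. These matches describe the windows only. RefSeq lists another Meg3 start, whose window (chr12:109545148-109545447) held 1 CpG and none of the motifs.

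The counts of Meg3 and Rian were compared within each library. For each count of Rian there were 1.65, 1.69 and 1.70 counts of Meg3 in the GFP libraries and 1.83, 1.87 and 1.89 in the Ezh2-Y726D libraries, so the groups did not overlap. With 3 libraries against 3, the exact two-sided permutation test gave its smallest possible p of 0.1 (0.325 after Benjamini-Hochberg adjustment over the 13 shares and ratios tested). The ratio of Rian to Mirg overlapped between groups, at 7.53 to 9.28 in GFP and 7.58 to 8.27 after Ezh2-Y726D (exact permutation p 0.7). Over the 6 libraries, log2 levels of Meg3 and Rian correlated with Pearson's r of 1.00, a value carried in part by the group difference that all these RNAs share. Taken as deviations from group means, r was 0.96 for Meg3 and Rian, 0.98 for Rian and Snhg11, and -0.52 for Meg3 and Mirg, over the same 6 libraries. The Ezh2-Y726D libraries hardly varied (SD 1.95 CPM for Meg3, 2.13 for Rian and 3.65 for Snhg11). In GFP the SDs were 20.5, 11.6 and 16.9 CPM, with replicate 2 (50.9% rRNA gene) highest for each. The r of 0.96 and 0.98 therefore rest largely on that library.

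Other genes of the Dlk1-Dio3 region were read beside these 3 RNAs. Of the 8 protein-coding and antisense genes listed for the region, 6 were tested and 0 were called in either direction by edgeR's quasi-likelihood test, with 1 (Ppp2r5c) at an unadjusted p under 0.05. Log2 fold changes were 0.11 for Begain (adjusted p 0.222), 0.16 for Wdr25 (0.31), -0.10 for Wars, a tRNA synthetase (0.139), and -0.10 for Ppp2r5c, a phosphatase subunit (0.0927). Those of Dio3, a thyroid hormone deiodinase, and its antisense Dio3os were -0.41 (SE 0.305, adjusted p 0.368) and 0.12 (SE 0.234, adjusted p 0.777). Dlk1 and the retrotransposon-like Rtl1 were below the filter. A pair of further noncoding genes between Rian and Mirg, named after their values were seen, were called higher: Gm37899 by 0.37 (SE 0.0956, adjusted p 0.00348) and B830012L14Rik by 0.71 (SE 0.266, adjusted p 0.0466).

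Small RNA genes from the Meg3 start to the Mirg end were sparsely counted in these libraries. The 61 small RNA genes analysed there summed to 10, 10.7 and 9.29 CPM in the GFP libraries and 13.8, 12.8 and 12.7 CPM in the Ezh2-Y726D libraries, from 56 to 374 counts per library. The groups did not overlap (exact two-sided permutation p 0.1, the smallest 3 against 3 allows). Only 5 of the 61 passed the filter and 0 were called by edgeR, at adjusted p from 0.0998 (Mir453) to 0.927 (Mir433), with 1 of the 5 (Mir453) at an unadjusted p under 0.05. Counts on a hairpin gene in a total RNA library come from the longer host or precursor and do not measure the mature miRNA.

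Hairpins that lie wholly inside a host's exons are of interest because a read there could be assigned to either gene. Meg3 holds 2 such hairpins, Mir1906-1 and Mir770, and Mirg holds 4 of its 14, namely Mir134, Mir485, Mir377 and Mir410. Their mature sequences in RefSeq (GRCm38.p6) are given with the seed, bases 2 to 8, in capitals.
miR-1906: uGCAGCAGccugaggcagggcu
miR-770-5p: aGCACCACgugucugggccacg
miR-770-3p: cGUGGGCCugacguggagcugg
miR-134-5p: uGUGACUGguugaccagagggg
miR-134-3p: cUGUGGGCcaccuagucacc
miR-485-3p: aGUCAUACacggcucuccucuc
miR-377-5p: aGAGGUUGcccuuggugaauuc
miR-377-3p: aUCACACAaaggcaacuuuugu
miR-410-5p: aGGUUGUCugugaugaguucg
miR-410-3p: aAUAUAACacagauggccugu
These 10 mature sequences have 10 different seeds. Mature sequences were found for 2 of 2 miRNA genes in Meg3, 3 of 4 in Rian and 14 of 14 in Mirg, and among these a seed was shared only by miR-453 and miR-496a-5p, whose hairpins lie in Mirg introns. The 6 wholly exonic hairpin genes are not among the 32371 genes with counts. No gene in that set has 0 counts in all libraries. The intronic Mir453 held 2 to 23 counts per library and the intronic Mir541 0 to 16. Exon overlap with other annotated genes reached 8.3% of the exonic bases of Meg3, 3.4% of Rian, 5.0% of Mirg, 1.6% of Snhg11, 7.7% of Malat1, 1.8% of Neat1, 30.4% of Miat and 0.0% of Rn7sk. These shares take in both strands. Genes on the opposite strand cover 2260 of the 2828 overlapped bases of Miat, 453 of 539 of Malat1 and 1228 of 1499 of Meg3. How the counting treated reads shared by 2 genes is not given in the sources used here.

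Imprinted RNAs outside the region also included genes that rose. Of the 12 listed, 12 were tested, 7 rose and 0 fell, with a median log2 fold change of 0.34 against 0.00 over all genes. The largest were Zdbf2 at 0.64 (adjusted p 1.06e-06) and Snhg14, the long host transcript of the Snrpn region, at 0.59 (1.42e-10). The smallest of those called were Peg13 at 0.33 (3.72e-07) and Snrpn at 0.35 (4.5e-05). H19 (-0.08, SE 0.32), Nnat (-0.01, SE 0.0828), Airn, Nespas and Igf2 were not called. The plot of log2 fold changes with intervals sets these beside the 8 noncoding RNAs.

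**Figure D2:**
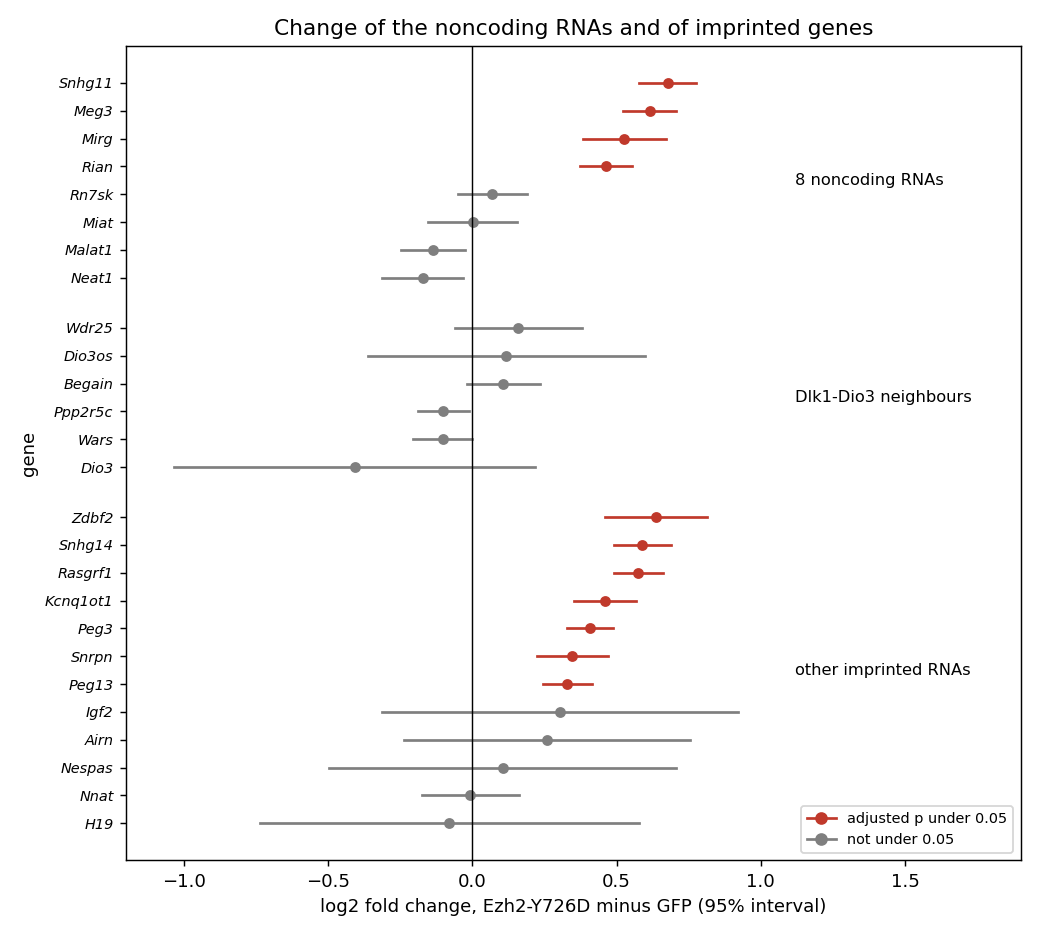
Log2 fold change (Ezh2-Y726D minus GFP) with its 95% interval for the 8 noncoding RNAs, 6 Dlk1-Dio3 neighbours and 12 other imprinted RNAs, with 3 libraries per group. Red marks an adjusted p under 0.05: the highest value is Snhg11 at 0.68, and no Dlk1-Dio3 neighbour is red.

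Markers of amacrine cells, the inhibitory interneurons of the inner retina, rose beside the 4 RNAs. All 9 of 9 amacrine markers rose, with a median log2 fold change of 0.54, from Slc6a9 (0.74), a glycine transporter, and Slc32a1 (0.70), the vesicular GABA and glycine transporter, down to C1ql1 (0.37) and C1ql2 (0.34). Their summed level was 1160 to 1246 CPM in the GFP libraries and 1776 to 1836 CPM in the Ezh2-Y726D libraries, and every marker passed the filter on low counts. RGC markers summed to 630.9 to 652.8 CPM in GFP and 597 to 645 CPM after Ezh2-Y726D, with 2 of 14 higher (Pou4f1 at 0.41 and Thy1, which encodes the CD90 of the sort, at 0.13) and 2 lower (Isl1 at -0.58, Nrn1 at -0.22). Microglia and phagocyte markers summed to 1298 to 1434 CPM in GFP and 727.6 to 853.8 CPM after Ezh2-Y726D, with 12 of 14 lower (Gpnmb at -2.31 and Cd68 at -1.29) and P2ry12 higher at 0.33. Cone markers were lower in 9 of 10 (721.8 to 733.7 CPM summed in GFP, 482.1 to 507.1 after Ezh2-Y726D), bipolar markers in 7 of 8, with Prkca higher at 0.34 (1032 to 1044 and 836.5 to 860.9 CPM) and T cell markers in 8 of 9. The ninth T cell marker is Thy1, counted among the RGC markers too, and without it the other 8 summed to 129.5 to 132 CPM in GFP and 74.6 to 81.8 CPM after Ezh2-Y726D. Isl1 is likewise on both the RGC and the bipolar list. Of all genes tested, 13.9% were called higher and 13.6% lower. Rod markers were higher in 3 and lower in 1 of 10 (6111 to 6347 CPM summed in GFP, 6624 to 6890 after Ezh2-Y726D). Müller glia markers were higher in 3 and lower in 3 of 10 (10170 to 10650 and 9055 to 9364 CPM). Endothelial and pericyte markers were lower in 5 of 10 (1141 to 1212 and 1046 to 1112 CPM). The part of these shifts in the rise of Meg3, Rian, Mirg and Snhg11 was not tested.

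**Figure D3:**
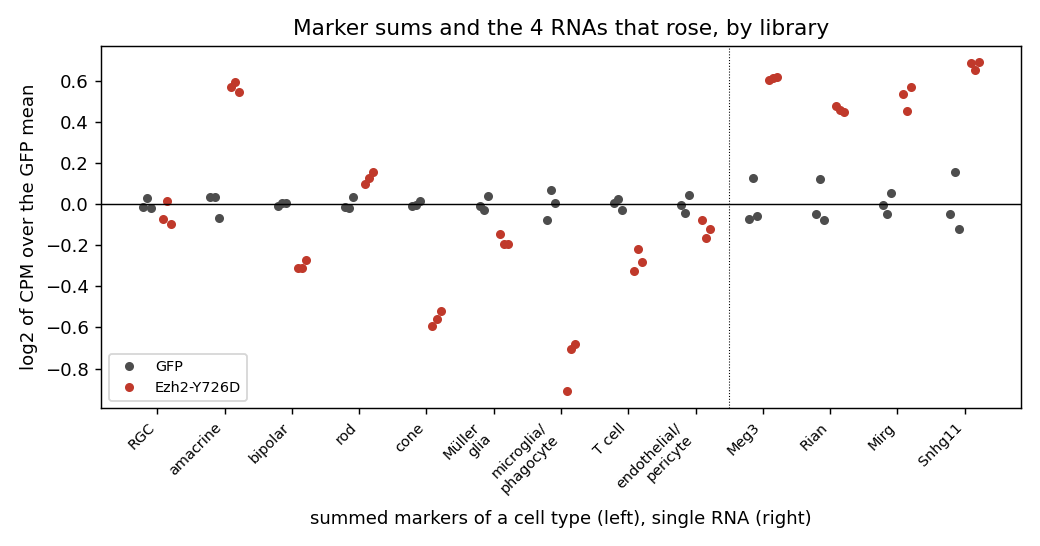
Log2 of the summed CPM of each cell type's markers (left) or of 1 RNA (right) over the GFP mean, for each of the 6 libraries. Amacrine markers (1776 to 1836 CPM after Ezh2-Y726D against 1160 to 1246 in GFP) lie above 0 with the 4 RNAs, and microglial and cone markers lie below. Rod markers after Ezh2-Y726D also lie above 0 (6624 to 6890 CPM against 6111 to 6347 in GFP).

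The genes with levels most like each of these RNAs were sought among 10482 genes with a mean of at least 10 CPM, by Pearson's r of log2(CPM + 1) over the 6 libraries. For Meg3 they were Cacna1e, a voltage-gated calcium channel subunit, and Kcna2, a potassium channel (r 0.999 each). For Rian they were Cacna1e and Cplx2, a complexin of synaptic vesicle release. For Mirg they were Meis1 (r 0.999) and Myh10 (0.996), and a gene much like Snhg11 was 4930447C04Rik (0.997). Such values describe 6 libraries that differ by group, where many genes reach a high r.

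Malat1, at chr19:5795690-5802672 on the minus strand, is a single exon of 6983 bases. Its level was 16200, 17800 and 17310 CPM in the GFP libraries and 16910, 14210 and 15550 CPM in the Ezh2-Y726D libraries. Ezh2-Y726D replicate 1 lay among the GFP libraries. The log2 fold change was -0.14 (SE 0.0545, 95% interval -0.25 to -0.03) with an adjusted p of 0.0623 by edgeR's quasi-likelihood test, just above the threshold. It passed the threshold, as lower, in 8 of 19 other settings, among them leaving out Ezh2-Y726D replicate 1 (-0.20, adjusted p 0.00162) or GFP replicate 1 (-0.18, 0.0321), while the value was -0.08 (0.332) without Ezh2-Y726D replicate 2 and -0.11 (0.226) without GFP replicate 2. The range over all 19 was adjusted p 0.000596 to 0.629.

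Neat1, the neighbour of Malat1 on the same strand, lies at chr19:5824708-5845478 in 1 merged exon of 20771 bases that joins its short and long isoforms, so the isoforms are not told apart in a gene count. GFP libraries held 54.3, 63.3 and 52.2 CPM, and those with Ezh2-Y726D held 55.7, 45.6 and 48.2 CPM. The groups overlapped, and the log2 fold change was -0.17 (SE 0.0686, 95% interval -0.31 to -0.03, adjusted p 0.0617). Neat1 was called lower in 6 of 19 other settings (adjusted p 0.00221 to 0.51 over all 19), including the fits without Ezh2-Y726D replicate 1 (-0.26, 0.00266), GFP replicate 1 (-0.22, 0.0477) and GFP replicate 3 (-0.20, 0.0427). Without GFP replicate 2 it was -0.10 (adjusted p 0.335) and without Ezh2-Y726D replicate 2 it was -0.12 (0.277). Both RNAs were lower by the fitted value in 18 of 19 settings; with library totals alone as the scaling they were 0.39 and 0.34, beside a median of 0.49 over all genes. Over the 6 libraries r between Malat1 and Neat1 was 0.88, and 0.80 for deviations from group means. Genes most like Malat1 were Nfkbiz (r 0.982) and Eif3g (0.979), and those most like Neat1 were Zcchc9 (0.987) and Trnau1ap (0.982).

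Genes for proteins of these nuclear bodies had medians near 0. Of 15 paraspeckle proteins, 2 rose (Cpsf6 by 0.15, adjusted p 0.0152, and Sfpq by 0.11, adjusted p 0.0284) and 1 fell (Nono, by 0.12 on the log2 scale, adjusted p 0.0209). Their median was 0.03. Of 18 speckle and splicing factors, Srrm2, a core speckle protein, was the 1 called (0.15, adjusted p 0.00854), and the median was 0.00. Over all genes tested, 13.9% were called higher and 13.6% lower.

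Miat, at chr5:112213228-112229395 on the minus strand, had levels of 26.7, 31.1 and 23.6 CPM with GFP and 27.1, 25.1 and 29.0 CPM with Ezh2-Y726D. The highest and the lowest library were both GFP libraries, and the log2 fold change was 0.00 (SE 0.0748, adjusted p 0.995) with a 95% interval of -0.15 to 0.16. It was called in 0 of 19 other settings, DESeq2 among them, and its unadjusted p was 0.988. Miat carries copies of TACTAAC, the letters of the splicing branch point that its partner proteins bind, and the longest of its transcripts (9163 bases) holds 6. Of 7167 long noncoding genes with a transcript of at least 1000 bases, 6.2% hold the motif and none holds more copies. These are raw copy numbers, not scaled to transcript length (0.65 copies per kb in Miat). The stretch from base 4873 to 5072, chosen for holding the most copies, reads as follows with its 3 copies in capitals.
Miat: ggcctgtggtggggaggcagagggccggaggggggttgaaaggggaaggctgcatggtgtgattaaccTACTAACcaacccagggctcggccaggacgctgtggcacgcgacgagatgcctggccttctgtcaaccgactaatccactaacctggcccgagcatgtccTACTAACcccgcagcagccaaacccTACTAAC
Among the other 7 RNAs, Neat1 held 1 copy and the rest held 0. Genes most like Miat were Ccdc28b (r 0.989) and Qrsl1 (0.979).

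Rn7sk is a single exon of 331 bases at chr9:78175303-78175633 on the minus strand, with no other annotated gene over it. Its first 110 bases, shown because they cover the 5′ hairpin that Hexim proteins bind at GATC, hold all 3 GATC of the transcript (capitals, at bases 13, 42 and 64).
Rn7sk: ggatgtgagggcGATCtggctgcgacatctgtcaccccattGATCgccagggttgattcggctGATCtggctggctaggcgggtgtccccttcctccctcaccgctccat
Its level was 18310, 22430 and 20250 CPM in the GFP libraries and 20040, 22410 and 21560 CPM in the Ezh2-Y726D libraries. All 3 Ezh2-Y726D libraries lay within the range of the GFP libraries, and the log2 fold change was 0.07 (SE 0.0585, 95% interval -0.05 to 0.19, adjusted p 0.434). Without GFP replicates 2 and 3, the libraries with over 50% rRNA, the value was 0.22 (adjusted p 0.0111), which leaves 1 GFP library that is assumed to vary like the Ezh2-Y726D libraries. Without that remaining library, GFP replicate 1, the value was 0.00 (adjusted p 0.991). Over all 19 other settings its adjusted p ran from 0.0111 to 0.991. Annotated transcripts of 10 other genes share at least 90% identity with Rn7sk over at least 100 bases (246 at most), so its count is uncertain to the extent that such reads were split or dropped. The most alike genes were Mrs2 and Kmt2d (r 0.988 each).

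The partners of 7SK were not called. Of 8 genes of the 7SK particle and P-TEFb, 0 were higher and 0 lower by edgeR's quasi-likelihood test, and 0 had an unadjusted p under 0.05. Larp7 (-0.07, SE 0.0857) and Mepce (-0.06, SE 0.0582) stabilise and cap 7SK, and Hexim1 (-0.07, SE 0.0565) and Hexim2 (0.16, SE 0.088) inhibit the kinase. The kinase Cdk9 (-0.03, SE 0.0706) and its cyclins Ccnt1 (0.08, SE 0.0554) and Ccnt2 (0.09, SE 0.0463) did not pass the test either. Of 5 other short structural RNAs tested by edgeR (the Y RNAs Rny1 and Rny3 among them), 0 were called and 0 had an unadjusted p under 0.05.

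Per kilobase of exon, the 8 RNAs ranged from 61400 CPM per kb for Rn7sk to 2.57 CPM per kb for Mirg in the GFP libraries. Malat1 followed at 2450 ± 118 (SD, n = 3), then Snhg11 at 19.5 ± 1.98, Meg3 at 14.3 ± 1.13 and Rian at 8.46 ± 0.637 CPM per kb. No 2 neighbours of these 5 overlapped. Miat (2.92 ± 0.407), Neat1 (2.73 ± 0.284) and Mirg (2.57 ± 0.0925) came last, and their GFP values overlapped. After Ezh2-Y726D the order of the last 3 was Mirg (3.68 ± 0.154), Miat (2.91 ± 0.206) and Neat1 (2.40 ± 0.252), with every Mirg value above every Miat value and with Miat and Neat1 apart by their lowest and highest values of 2.71 and 2.68. Of 18138 genes, Rn7sk ranked 2, Malat1 5, Snhg11 1116, Meg3 1800 and Rian 3926 per kilobase.

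**Figure D4:**
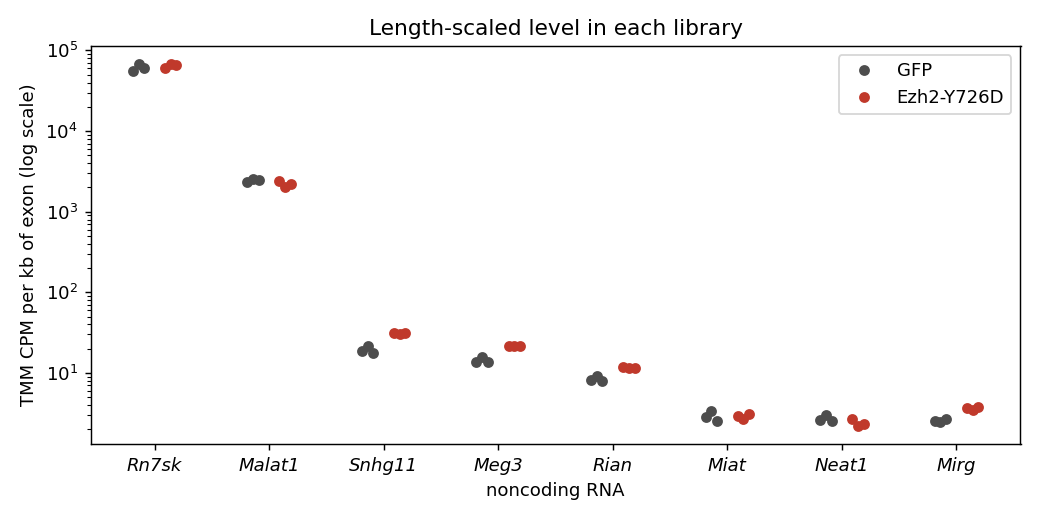
CPM per kilobase of merged exon (log axis) of the 8 noncoding RNAs in each of the 3 GFP and 3 Ezh2-Y726D libraries. Rn7sk (61400 in GFP) and Malat1 (2450) lie far above the other 6, and Mirg moves from the level of Neat1 and Miat to above them.

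Together the 8 RNAs held 4.80%, 5.53% and 5.16% of the counts outside the rRNA gene in the GFP libraries and 5.09%, 5.02% and 5.10% in the Ezh2-Y726D libraries. The difference of means was -0.09 percentage points (exact two-sided permutation p 0.7), within the spread of the GFP libraries. It was -0.28 points without GFP replicate 1 and turned to 0.09 points without GFP replicate 2. Malat1 and Rn7sk made up 98.1% to 98.3% of that share in GFP and 97.4% after Ezh2-Y726D. The other 6 RNAs held 0.0894%, 0.101% and 0.0868% in GFP and 0.132%, 0.129% and 0.131% after Ezh2-Y726D, with no overlap (exact permutation p 0.1, the smallest possible).

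Other long noncoding RNAs gave the background for these values. Of 33 listed, 30 were tested, 8 were higher and 3 lower, with a median of 0.04. Pantr1, a neighbour of a neural transcription factor gene, was highest at 0.84 (adjusted p 0.000734), followed by Snhg14, and Dleu2 (-0.59, 7.26e-07) and Snhg15 (-0.40, 0.0294) were the lowest of those called. Snhg14, Kcnq1ot1 and Peg13 are on this list and on that of imprinted RNAs. Of all 1551 long noncoding genes tested, 5.61% were called higher and 3.68% lower, and of the 127 with a mean of at least 10 CPM, 23.6% and 12.6%.

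Meg3, Rian, Mirg and Snhg11 were each called higher in 18 of 19 other settings, and Malat1 was called in 8, Neat1 in 6, Rn7sk in 3 and Miat in 0, as the plot of settings shows. With library totals, which follow the rRNA share, the 4 RNAs were at 0.98 to 1.19, with adjusted p from 0.17 to 0.313 and a median of 0.49 over all genes.

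**Figure D5:**
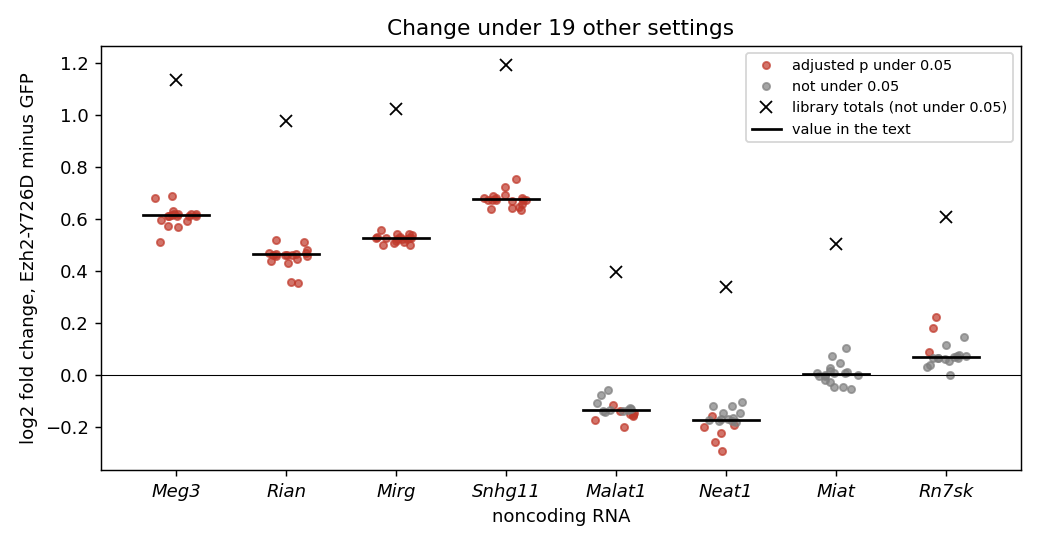
Log2 fold change (Ezh2-Y726D minus GFP) of each noncoding RNA under 19 other settings (points, red where the adjusted p was under 0.05; crosses, scaling by library totals) with the value in the text as a line. Points of Meg3, Rian, Mirg and Snhg11 lie above 0 in every setting, and those of Malat1 and Neat1 lie below 0 in all but library totals.

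Strand and copies were checked for the counts. The gene Gm37376 lies wholly inside the Malat1 exon on the opposite strand. It held 3 to 9 counts per library, against 104391 to 461831 for Malat1, so few if any Malat1 reads were counted for it. The strand setting is not given in the sources used here, and dropping reads shared by 2 genes would also leave it few counts. Gm26953, opposite Miat over 2260 bases, held 0 or 1. Stretches of up to 191 bases of Malat1, Neat1 and Snhg11 match transcripts of 1744, 253 and 191 other annotated genes, respectively. The matches have 90% identity or more over at least 100 bases. Meg3, Rian, Mirg and Miat match none outside their own loci. Only annotated transcripts were searched, so copies elsewhere in the genome are not counted.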

How the data were processed

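The authors aligned the reads to GRCm38 with STAR 2.7.0d per the submitters' processing notes and deposited a table of raw read counts per Ensembl gene (32371 genes, 6 libraries); the counting tool and annotation are not given in the sources used here. Of these genes 32325 were found in GENCODE vM21, which gave symbols, coordinates and exon overlap. The counts were filtered (filterByExpr, minimum count 10, total 15), scaled by TMM and tested with the quasi-likelihood test of edgeR 4.0.16 in R 4.3.3 (no covariate, Benjamini-Hochberg over 18138 genes). Single values per library were compared by exact two-sided permutation. DESeq2 1.42.0 and other scalings, filters and left-out libraries were alternatives. The script was tested on simulated data. Promoter and miRNA sequences are RefSeq's (GRCm38.p6), and copies were searched with BLAST 2.17.0.

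The 8 members and the gene lists were chosen with earlier results of these data known. Named were the 8 RNAs, every gene of the 7SK and Dlk1-Dio3 lists, the 2 highest and 2 lowest called genes of the other lists, overlapping genes, and the 2 genes most like each RNA. Of the genes this rule names, 2 are not reported here. Replicates were compared before averaging, and none agreed within sampling noise.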

Additional observations from a re-analysis of the deposited data

How the results depend on the processing

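All values are from fits of 3 libraries per group unless a library is left out. Of the 8 RNAs, 4 were called; 0 were called with library totals, 7 with no filter on low counts and 7 with the length trend removed. The count called higher was 4, fell to 0 with library totals and was 5 with no filter and with the length trend removed, where Rn7sk was called too. The count called lower was 0 and became 2 with library totals without the rRNA gene, 2 with no filter, 1 with counts thinned to the shallowest library, 1 with the GC trend removed, 2 with the length trend removed and 0 to 2 when each library was left out in turn. With the replicate block it became 1 (Malat1). The 2 DEGs became 0 with library totals, 1 with thinned counts, 1 with the length trend removed, 0 at a fold change over 2, and 1 to 2 when each library was left out (1 without GFP replicate 1). The 7 imprinted RNAs and 9 amacrine markers called higher were 0 with library totals, under which 65 genes in all were called. The members' share of counts differed by 1.41 points as a percent of all counts, against -0.0939 outside the rRNA gene, and by -0.277 to 0.0888 points when each library was left out. No sign of a called value turned. Except for library totals, whose factors follow the rRNA share, the cause of these moves was not tested. Without GFP replicates 2 and 3, chosen after seeing the data, 5 RNAs, 7 imprinted RNAs and 9 amacrine markers were called higher.

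Same-numbered libraries deviated together only weakly (correlations of deviations 0.176, 0.063 and 0.046), so the numbers were not taken as pairs, although each GFP library correlated best with its own number; the replicate block raised the calls over all genes from 4988 to 5222. Depth limits Mirg, Miat and Neat1 most, and the small RNA genes, where 5 of 61 could be tested.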
